A study of Mus musculus with 6 samples.

Results

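Most miRNAs are cut out of their primary transcript by the nuclear enzyme Drosha, and the miRNAs described here are known for reaching the cytoplasm without it. The list held 6 mature miRNAs of 4 hairpins, namely mmu-miR-877-5p and mmu-miR-877-3p (a mirtron), mmu-miR-320-3p and mmu-miR-484 (made from capped precursors), and mmu-miR-1839-5p and mmu-miR-1839-3p (from a small nucleolar RNA-like gene), written below without the species prefix mmu. They were chosen by their biogenesis, and also because miR-877-5p had been seen at a lower level in M2-exo, so the contrast between the groups is given for them as a description, without a p-value. Of the 6 names, 5 were found among the 598 miRNA names of the count table, and miR-1839-3p was not analysed here. Small RNA had been sequenced from exosomes of RAW264.7 cells, a mouse macrophage line labelled as wild type, so a single cell line underlies every sample. The 3 M0-exo samples came from untreated cells and the 3 M2-exo samples from cells given IL-4 and IL-13 (20 ng/mL each) for 24 h, and in both groups the exosomes were collected in serum-free medium and isolated by ultracentrifugation. All 6 libraries carried the label batch 1. Nothing in the labels says whether the 3 samples of a group came from separate cultures, so the spread between them may be technical.

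A mirtron is a short intron that folds into a hairpin, so that the spliceosome and the debranching enzyme, not Drosha, release the precursor, which Dicer then cuts. In the capped class, transcription starts at the first base of the hairpin and the precursor carries a 7-methylguanosine cap, which leads it out of the nucleus through exportin 1, and Argonaute then mostly takes the 3p arm of the miR-320 hairpin. Small nucleolar RNAs and their relatives in Cajal bodies (scaRNAs) guide chemical modification of other RNAs, and fragments of some of them are cut by Dicer and bound by Argonaute like miRNAs. All these routes join the common pathway at Dicer and Argonaute, so the mature products are counted in a small RNA library like any other miRNA.

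The mature sequences are shown because they tie each name to its origin. They are written 5′ to 3′ as deposited, with the seed (bases 2 to 8, the part that pairs with targets) in capitals.
miR-877-5p: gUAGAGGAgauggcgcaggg
miR-877-3p: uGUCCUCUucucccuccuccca
miR-320-3p: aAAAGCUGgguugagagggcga
miR-484: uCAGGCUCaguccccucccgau
miR-1839-5p: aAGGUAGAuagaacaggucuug
Those of miR-877-5p, miR-877-3p, miR-484 and miR-1839-5p were equal to their RefSeq entries in the GRCm38.p6 annotation, and miR-320-3p was not compared. The 5 seeds differ from one another, and 0 of the 5 were shared with any other name in the table, so these miRNAs form no seed family here.

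Positions are those of GENCODE M21 on GRCm38, found by matching the deposited sequences to annotated hairpins, since the submitters' notes name mm39 and the table holds no coordinates. The hairpin Mir877 lies on the minus strand at chr17:35960730-35960814 and coincides base for base with intron 12 of the 23-exon transcript Abcf1-201, 85 bases long. Abcf1 encodes an ATP-binding protein of translation initiation. miR-877-5p therefore begins on the first base of the intron, as the first 20 bases show with the splice donor in capitals, and miR-877-3p ends 1 base before the end of the intron, as the last 26 bases show with the splice acceptor in capitals.
Abcf1 intron, first bases: GTagaggagatggcgcaggg
Abcf1 intron, last bases: atgtgtcctcttctccctcctcccAG

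Mir320, of 82 bases, lies on the plus strand at chr14:70443510-70443591, and the annotated start of Polr3d-201, which encodes a subunit of RNA polymerase III, lies 63 bases away on the opposite strand. miR-320-3p spans chr14:70443557-70443578, on the 3′ arm. Mir484, of 67 bases, lies on the plus strand at chr16:14159626-14159692, with miR-484 starting 4 bases into it, and an exon of the gene Marf1 overlaps the hairpin on the opposite strand. Mir1839, of 73 bases, lies on the plus strand at chr7:81529916-81529988, and 66 of these bases fall within a scaRNA annotated from 81529855 to 81529981 on the same strand. The host there is the long noncoding gene 2900076A07Rik, in which the hairpin lies in an exon of 1 transcript and in introns of 2 others. In the annotation the name snoRNA-like thus corresponds to a scaRNA.

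**Figure D1:**
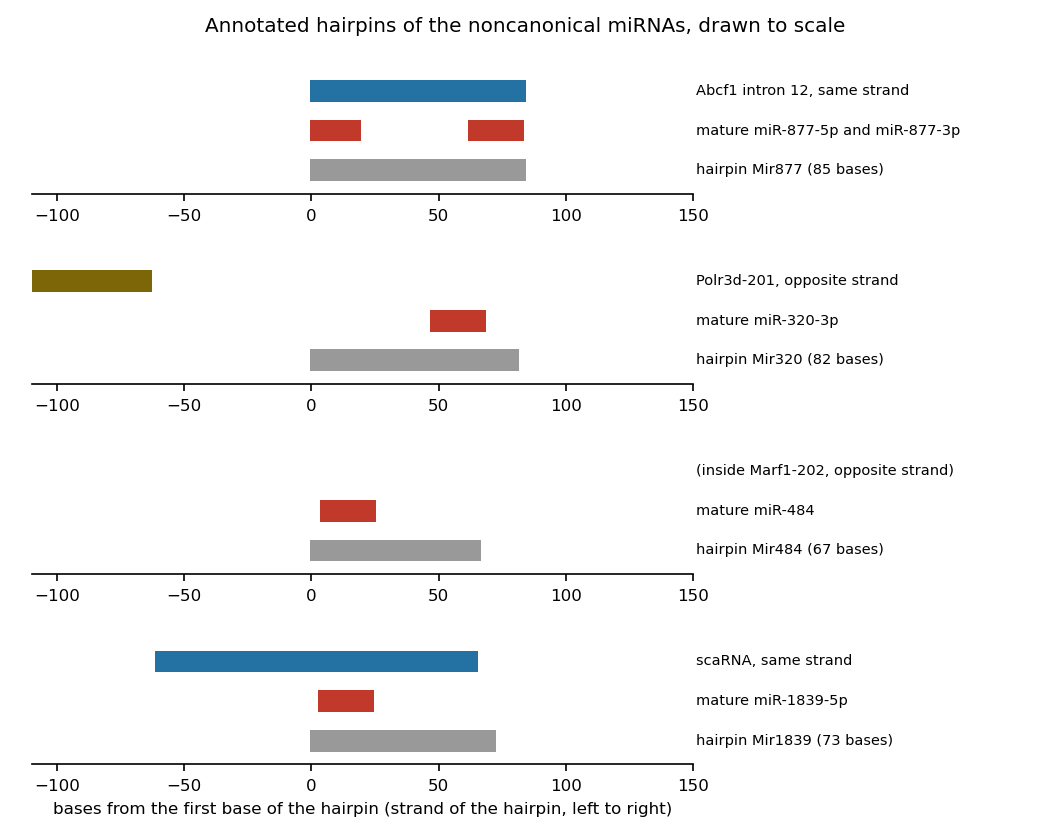
Annotated hairpins (grey) with their mature miRNAs (red) and the overlapping or nearest feature, against the distance in bases from the first base of the hairpin, with each hairpin read 5′ to 3′ from left to right. The Abcf1 intron and the Mir877 hairpin have the same ends, the scaRNA covers 66 of the 73 bases of Mir1839, and Polr3d-201, cut off at the left edge, starts 63 bases from Mir320.

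With 1 entry kept per name, the libraries held 863194 to 1453348 counts, and the let-7 family with miR-98 took between 74.9% and 77.9% of each. The limit set by a count of 0, taken as 3 counts, was 2.06 to 3.49 CPM (counts of a miRNA per 1000000 counts of its library) before scaling. Such limits and all intervals below cover counting error only, since no molecular identifiers are described. M2-exo libraries had 56 to 79 names at 1 or 2 counts, M0-exo libraries 11 to 17. All 5 miRNAs of a myeloid list (such as miR-142a-3p, miR-155-5p and miR-223-3p) were counted in every library, with a summed level of 1282 to 1629 CPM in M0-exo and 839 to 1092 CPM in M2-exo. The members of that list went both ways, with scaled log2 fold changes of -1.04 for miR-155-5p, -0.55 for miR-146a-5p, 0.22 for miR-142a-5p, 0.45 for miR-142a-3p and 1.60 for miR-223-3p. Red cell or serum miRNAs summed to 59.2 to 119 CPM, muscle and stromal ones (3 of 5 in the table) to 21.3 to 70.1 CPM and neuronal ones (1 of 2 in the table, at 0 in M0-exo replicate 2) to between 0 and 9.30 CPM. The liver miRNA miR-122-5p stood apart in M2-exo replicate 3, at 2252 CPM against 43.3 to 146 CPM in the other libraries. Levels below are CPM scaled by the TMM method, and a log2 fold change is M2-exo over M0-exo from the edgeR fit over all 598 names, with its standard error (SE). The SE, like the p-values of the fit, draws on variation pooled over names and is not the spread of a miRNA's own libraries. For miR-122-5p the SE was 0.18, although its M2-exo level was 929 ± 1359 CPM (SD, n = 3).

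miR-877-5p, the 5′ arm of the mirtron and a product of the donor end of the Abcf1 intron, was counted 4775, 4654 and 3584 times in M0-exo replicates 1, 2 and 3 and 1556, 1544 and 1376 times in M2-exo replicates 1, 2 and 3. After scaling these were 3057, 3717 and 3854 CPM for M0-exo and 1821, 1851 and 1573 CPM for M2-exo. All M0-exo libraries lay above all M2-exo libraries, and the lowest M0-exo value was 1.65 times the highest M2-exo value. The spread within a group was small beside that gap, with a coefficient of variation of 12.0% in M0-exo and 8.71% in M2-exo. The log2 fold change was -1.02 (SE 0.11, n = 3 per group), so M0-exo held 2.03 times the level of M2-exo. It was -0.95 without M2-exo replicate 3, the library that stood apart in miR-122-5p. Among the 178 names with at least 10 counts in every library, its log2 fold change was the 11th from the lowest.

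miR-877-3p, the opposite arm, was rare. It had 30, 0 and 0 counts in M0-exo replicates 1, 2 and 3 and 19, 8 and 4 in M2-exo replicates 1, 2 and 3. The groups overlapped, and the log2 fold change of 0.86 had an SE of 1.16. M0-exo replicate 1 decided that value, since without it the M0-exo libraries were all at 0 counts and the fitted value was 6.54, which depends on the prior count of the fit. At the share seen in M0-exo replicate 1, 29.2 and 22.5 counts of the 3p arm would have gone with the 5p counts of M0-exo replicates 2 and 3, where 0 were counted.

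The arm balance of the mirtron does not depend on the scaling between libraries. The 3p arm made up 0.624% of the counts of both arms in M0-exo replicate 1 (95% Wilson interval 0.438% to 0.890%). It was 0 of 4654 in M0-exo replicate 2 and 0 of 3584 in M0-exo replicate 3. Taken as 3 counts, these allow shares of up to 0.0645% and 0.0837%, and their 95% Wilson upper limits are 0.0825% and 0.107%. In M2-exo replicates 1, 2 and 3 the share was 1.21% (0.774% to 1.88%), 0.515% (0.261% to 1.01%) and 0.290% (0.113% to 0.743%). The 5p arm thus took nearly all counts in every library, and the M0-exo libraries differed among themselves by more than their counting intervals. With 0.5 counts added to each arm, the log2 ratio of 5p to 3p was 7.29, 13.2 and 12.8 in M0-exo replicates 1, 2 and 3, where the last 2 values are set by the added count, and 6.32, 7.51 and 8.26 in M2-exo replicates 1, 2 and 3. The difference of the means was -3.73, and -3.15 with 1 count added, so its size is not a measurement of the arm balance.

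miR-320-3p, the arm of the capped hairpin that Argonaute mostly takes, was the most abundant of these miRNAs and ranked 16th of the 598 names by total count. It was counted 12545, 11406 and 7411 times in M0-exo against 6213, 6074 and 5831 in M2-exo. Its scaled levels of 8032, 9109 and 7968 CPM (M0-exo) stood against 7273, 7281 and 6668 CPM (M2-exo). All M2-exo libraries lay below all M0-exo libraries, but the lowest M0-exo value was 1.09 times the highest M2-exo value, a narrow gap. The log2 fold change was -0.24 (SE 0.09, n = 3 per group). It was -0.46 with the library total only and -0.49 with limma on log2(RPM + 1), so its size depended on the scaling, and it stayed under the 0.5 used for calls. The opposite arm, miR-320-5p, had 3 counts in M2-exo replicate 2, beside 6074 of the 3p arm, and 0 counts in the other libraries.

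miR-484, the second capped miRNA, gave 605, 540 and 380 counts (M0-exo) against 422, 368 and 311 (M2-exo). The scaled levels were 387, 431 and 409 CPM for M0-exo and 494, 441 and 356 CPM for M2-exo, so the groups overlapped, with the highest and the lowest library both in M2-exo. The coefficient of variation was 5.36% in M0-exo and 16.2% in M2-exo. The log2 fold change was 0.07 (SE 0.16), smaller than its error, and its sign was not stable, since it was -0.14 with the library total only and -0.04 without M2-exo replicate 1.

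miR-1839-5p, from the scaRNA locus, gave 115, 74 and 54 counts (M0-exo) against 90, 63 and 82 (M2-exo). This corresponded to 73.6, 59.1 and 58.1 CPM for M0-exo and to 105, 75.5 and 93.8 CPM for M2-exo. All M2-exo libraries lay above all M0-exo libraries, M2-exo replicate 2 and M0-exo replicate 1 being nearly level. With the library total only, the groups overlapped. The log2 fold change was 0.52 (SE 0.31, n = 3 per group). With few counts per library, counting error alone gives a coefficient of variation of 11.1% in M0-exo and 11.3% in M2-exo, beside the 13.7% and 16.4% observed.

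**Figure D2:**
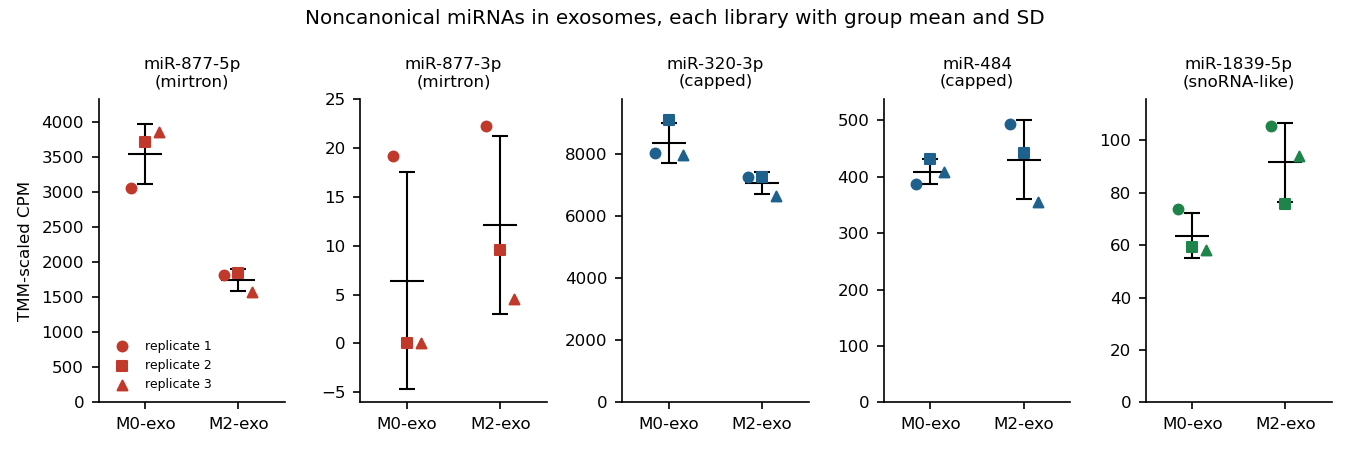
TMM-scaled CPM of each miRNA in each library (symbols mark the replicate), with the mean and SD of each group in black; each panel has its own linear axis. miR-877-5p is separated by the widest gap, miR-320-3p and miR-1839-5p by narrow gaps in opposite directions, and miR-484 and miR-877-3p overlap.

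The order of the levels was the same in every library, with miR-320-3p above miR-877-5p, miR-484, miR-1839-5p and miR-877-3p. No neighbours in that order overlapped over the 6 libraries. Summed by kind, the mirtron arms stood at 3549 ± 415 CPM for M0-exo and 1761 ± 158 CPM for M2-exo, with a log2 ratio of -1.01 that miR-877-5p carries almost alone. The capped miRNAs stood at 8779 ± 659 and 7504 ± 417 CPM, a log2 ratio of -0.23, and the scaRNA-derived miR-1839-5p at 63.6 ± 8.71 and 91.5 ± 15.04 CPM, a log2 ratio of 0.53 (SD, n = 3). A miRNA was called where its log2 fold change was 0.5 or more in size with an unadjusted p-value under 0.05 (edgeR, quasi-likelihood), which held for 60 of all 598 names. Of the 5, miR-877-5p was called lower in M2-exo, where 6.35% of all names were, and 0 were called higher, where 3.68% were. Calls were more common among the 178 names with at least 10 counts in every library, to which 4 of the 5 belong. Of these 178, 29 were called lower and 16 higher. The adjusted p-value was below 0.05 for 8.86% of all names, with 4.68% lower and 4.18% higher in M2-exo. Ranges that did not overlap were found for 2 of the 5 below M0-exo and 1 of the 5 above it, where 9.53% of all names lay below and 9.53% above. Nothing is read from these counts, because the choice of the list used this contrast. The median log2 fold change was 0.07 over the 5 (miR-484) and 0.03 over all names. Without M2-exo replicate 3 the log2 fold changes were -0.20 for miR-320-3p, 0.19 for miR-484, 0.50 for miR-1839-5p and 1.26 for miR-877-3p.

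**Figure D3:**
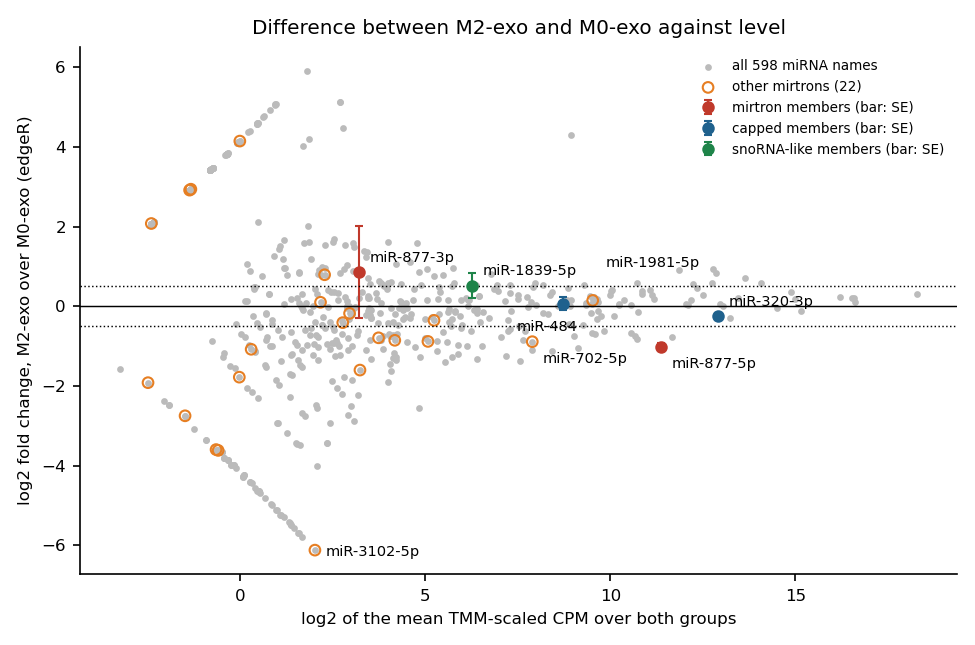
Log2 fold change of M2-exo over M0-exo against the log2 mean level for all 598 names (grey), the 5 members (coloured, bars are SE) and 22 other mirtron names (orange rings), with dotted lines at the threshold of 0.5 in each direction. miR-877-5p and miR-702-5p lie below the threshold at high levels, while the straight edges at low levels are names with all counts in 1 group.

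Ratios between these miRNAs within a library need no scaling at all. There were 0.381, 0.408 and 0.484 counts of miR-877-5p per count of miR-320-3p (M0-exo) against 0.250, 0.254 and 0.236 (M2-exo). Relative to miR-484 the ratio was 7.89, 8.62 and 9.43 (M0-exo) against 3.69, 4.20 and 4.42 (M2-exo). The mirtron was thus lower relative to both capped miRNAs in each M2-exo library than in any M0-exo library, with a difference of -0.77 against miR-320-3p and -1.08 against miR-484 on the log2 scale. Within the capped pair, miR-320-3p stood at 20.7, 21.1 and 19.5 times miR-484 for M0-exo and at 14.7, 16.5 and 18.7 times for M2-exo, a log2 difference of -0.30 between groups whose ranges nearly meet. Against miR-1839-5p, miR-877-5p stood at 56.9 ± 13.5 times (M0-exo) against 19.5 ± 4.32 times (M2-exo) (SD, n = 3), and miR-320-3p at 133 ± 22.8 and 78.9 ± 15.2 times. Only the ratio of miR-484 to miR-1839-5p overlapped between the groups, among the 6 pairs of these 4 miRNAs. Nothing is read from this count, since the pairs share members and miR-877-5p was chosen with this contrast known. The share over all pairs of names was not computed, and the ratios were added after seeing the data.

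**Figure D4:**
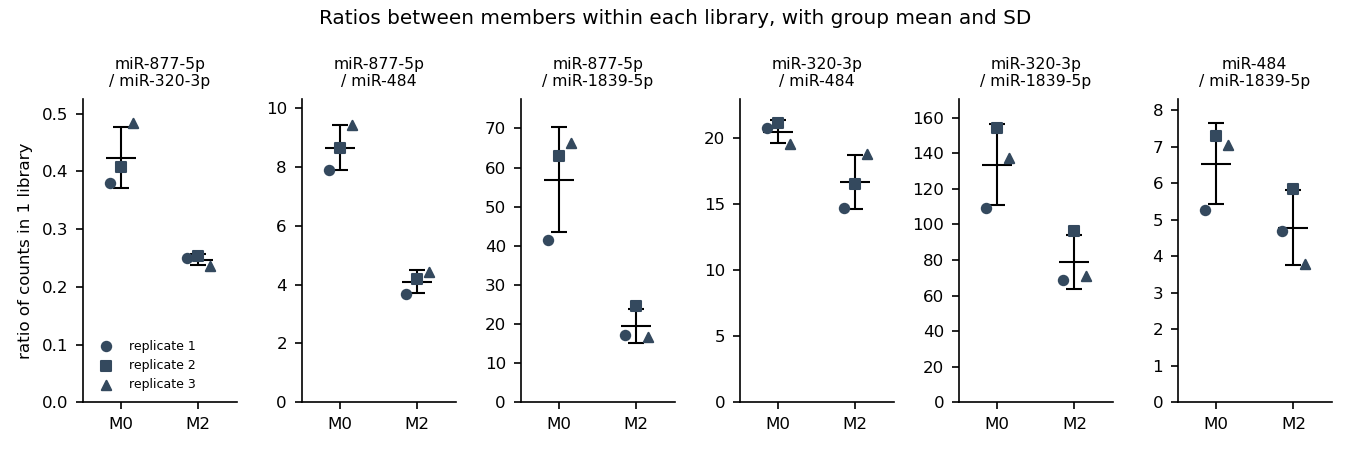
Ratio of the counts of pairs of miRNAs within each library (symbols mark the replicate), with the mean and SD of each group; each panel has its own linear axis from 0. The 3 ratios with miR-877-5p on top separate the groups most clearly, and miR-484 over miR-1839-5p does not separate them.

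The GC content of a miRNA moved with the difference between the groups over the whole table. Among the 241 names that averaged at least 10 counts, the median log2 fold change was 0.22 in the 61 names with the lowest GC content (27.3% to 45.5%), 0.05 and -0.18 in the following groups of 60 names, and -0.54 in the 60 names with the highest (61.9% to 100%). miR-877-5p has a GC content of 65%, miR-484 63.6%, miR-877-3p 59.1%, miR-320-3p 54.5% and miR-1839-5p 40.9%, where the median of all names is 54.5%. With an offset for GC content in the fit, the log2 fold change of miR-877-5p was -0.64, that of miR-320-3p -0.24, that of miR-484 0.38 and that of miR-1839-5p 0.19. The medians of the GC groups were then -0.15, -0.12, -0.07 and -0.14, from the lowest to the highest GC content. With the offset miR-877-5p remained lower in M2-exo by a smaller amount, and miR-1839-5p came closer to 0. The part of GC content in the results was not tested.

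**Figure D5:**
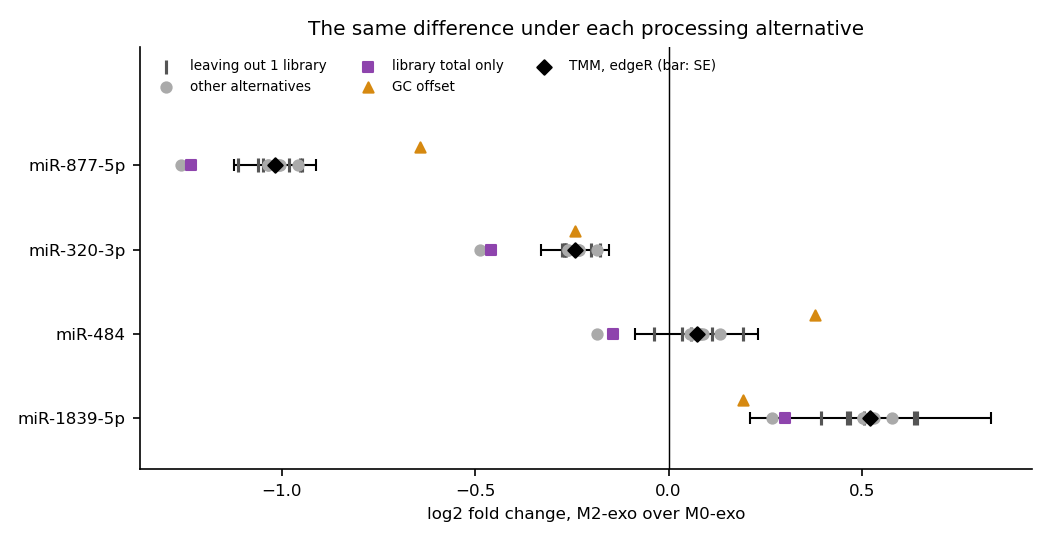
Log2 fold change of the 4 miRNAs with at least 10 counts in every library under the reported fit (black diamonds, bars are SE), the GC offset (triangles, drawn above the line), scaling by the library total only (squares), other alternatives (circles) and fits without 1 library (ticks). miR-877-5p lies between -1.26 and -0.64 throughout, and miR-484 lies on both sides of 0.

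Other miRNAs of the same kinds were followed from a list of known mirtrons, capped and snoRNA-derived miRNAs and from the annotation, which placed the hairpins of 24 names (both miR-877 arms among them) within 10 bases of both ends of an intron. Apart from the members, 22 mirtron names were in the table, and 17 had more than 3 counts in some library. By the same rule 2 of the 22 were called lower in M2-exo, miR-702-5p and miR-3102-5p, where 6.35% of all names were, and 0 were called higher, where 3.68% were. These shares are near the background, so the counts are no result about mirtrons as a group. miR-702-5p, from intron 13 of Plod3, a collagen-modifying enzyme, fell in M2-exo to 167 ± 23.9 CPM from 309 ± 80.1 CPM in M0-exo (SD, n = 3), with 338, 445 and 330 counts against 152, 153 and 122. Its log2 fold change was -0.89 (SE 0.19, Benjamini-Hochberg adjusted p = 8.6e-05 from edgeR), and -0.62 with the GC offset (adjusted p = 0.0445 from edgeR), with a GC content of 61.9%. miR-3102-5p, from intron 8 of Arhgef17, gave 11, 11 and 8 counts (M0-exo) against 0 in each M2-exo library. It was at least 2.32-fold higher in M0-exo against a floor of 3 counts per library. Its adjusted p in the edgeR fit was 0.144, and its unadjusted p-value 0.0174.

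The most abundant of the other mirtron products was miR-1981-5p. This product, from intron 5 of Marc2, gave 920, 907 and 728 counts (M0-exo) against 693, 718 and 571 (M2-exo). Its levels overlapped between the groups, at 699 ± 99.4 and 775 ± 109 CPM (SD, n = 3, log2 fold change 0.15, SE 0.13, adjusted p = 0.529 from edgeR). These products share the mark of their origin, since each begins on the first base of its intron with the GU of the splice donor, shown in capitals, as miR-877-5p does.
miR-702-5p: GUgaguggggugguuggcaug
miR-1981-5p: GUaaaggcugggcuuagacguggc
miR-3102-5p: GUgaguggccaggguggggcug

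Of the other mirtron names, 7 averaged at least 10 counts, and 6 had a negative log2 fold change, against 50.6% of the 241 names at that level. That average runs over both groups, so a name high in M0-exo alone could pass. No result about mirtrons as a group is therefore read from this count or from the medians below. In the GC groups that these 7 fall into, 40 of 60 names (52.4% to 61.9% GC) and 44 of 60 names (61.9% to 100% GC) were negative. Their median was -0.85, against -0.01 over the 241 names. With the GC offset it was -0.62, where the GC groups of the 241 names had medians from -0.15 to -0.07. The GC content of the 7 mirtron names ran from 54.5% to 70.0%. Besides miR-702-5p and miR-1981-5p these were miR-1982-5p (-1.60, SE 1.18), miR-6981-5p (-0.88, SE 0.50) and miR-7060-5p (-0.85, SE 0.75). The others were miR-7070-5p (-0.79, SE 0.92) and miR-7068-5p (-0.35, SE 0.46). The value of miR-1982-5p rested on M0-exo replicate 2, with 44 counts against 2 and 6 in M0-exo replicates 1 and 3. In M2-exo it had 0, 3 and 9 counts. The names listed here with an SE did not pass the test. The remaining names above 3 counts (miR-1231-5p, miR-1981-3p, miR-3062-5p, miR-6944-5p, miR-6958-5p, miR-6970-5p, miR-7082-5p, miR-7088-5p and miR-7091-5p) reached at most 16 counts in any library and did not pass it either. Among capped, snoRNA-derived and Dicer-independent miRNAs, 4 names were in the table and 0 passed by edgeR. miR-664-5p had a log2 fold change of -0.20 (SE 0.73), miR-664-3p one of -0.22 (SE 1.02), and miR-451a, which needs Drosha but is cut by Argonaute 2 in place of Dicer, one of 0.94 (SE 1.44), all with few counts.

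The nearest profiles over the 6 libraries were sought among the 177 other names with at least 10 counts in every library, by the root mean square difference of log2 CPM after each profile was centred on its own mean. For miR-877-5p these were miR-30c-1-3p (0.12) and miR-139-3p (0.15), where the median name differed by 0.60. For miR-320-3p they were miR-17-3p (0.06) and miR-92a-3p (0.07), for miR-484 miR-29b-3p (0.12) and the mirtron product miR-1981-5p (0.13), and for miR-1839-5p miR-27a-3p (0.09) and miR-15b-5p (0.14). The median name differed by 0.35 from miR-320-3p, by 0.37 from miR-484 and by 0.43 from miR-1839-5p. Among these members, miR-320-3p and miR-484 were the closest pair (0.18) and miR-877-5p and miR-1839-5p the farthest (0.82).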

How the data were processed

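Total RNA had been taken with TRIzol and made into NEBNext small RNA libraries. For 3 M0-exo and 3 M2-exo libraries, 1 table deposited by the authors gives counts of each mature miRNA by precursor. The deposited RPM values equal the counts scaled to a library sum of 1000000, to within 0.005. The genome build mm39 comes from the submitters' processing notes, and the aligner and counting tool are not given in the sources used here. Where a name had several precursors, its highest-total entry was used (638 entries, 598 names). Counts were fitted with edgeR 4.0.16 in R 4.3.3 (TMM, estimateDisp, glmQLFit, glmQLFTest, no covariates), with Benjamini-Hochberg adjustment over all names. SE is the unshrunk coefficient over the square root of F. The alternatives used DESeq2 1.42.0, limma 3.58.1 on log2(RPM + 1), other scalings and filters, a GC offset, summed entries, single libraries left out and a replicate block. No pairing by replicate number was seen (correlations of deviations -0.03, 0.04 and -0.06 over 241 names). This does not show whether samples with the same number were prepared together. The members, lists and tests were chosen with earlier results of these data known. The named miRNAs were the members, the other miRNAs of the same kinds above 3 counts in some library, and the 2 nearest profiles of each member with at least 10 counts in every library. The edgeR fit was tested on counts simulated with the same dispersion for every name, which may differ from the spread in these libraries. The arm balance of miR-1839 was not run, since miR-1839-3p was not analysed here. Within-library ratios were added after seeing the data.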

Additional observations from a re-analysis of the deposited data

How the results depend on the processing

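In all 16 alternatives miR-877-5p was called lower, and miR-320-3p and miR-1839-5p kept their direction and were not called. The alternatives all reuse the same libraries, and miR-877-5p was chosen with this contrast known. The calls of the members are therefore a description and no added support. The log2 fold change of miR-1839-5p ran from 0.19 (GC offset) to 0.64, on both sides of 0.5. miR-484 reversed with the library total only (-0.14), with limma on log2(RPM + 1) (-0.19) and without M2-exo replicate 1 (-0.039). miR-877-3p passed the threshold without M0-exo replicate 1 (6.54), where all M0-exo counts are 0. Leaving out each library in turn gave log2 fold changes from -1.11 to -0.95 for miR-877-5p, from -0.28 to -0.18 for miR-320-3p, from -0.039 to 0.19 for miR-484, from 0.39 to 0.64 for miR-1839-5p and from 0.081 to 6.54 for miR-877-3p.

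The number of miRNAs past the threshold (60) was 27 when a log2 fold change of 1 or more in size was asked (7 higher and 20 lower), as that threshold requires. The split of 22 higher and 38 lower became 10 and 63 with the library total only, and 11 and 60 with limma, where the median log2 fold change of all names was -0.18 and -0.12, against 0.03. With the library total only, the log2 ratios by kind were -1.23 (mirtron), -0.44 (capped) and 0.30 (scaRNA-derived). The cause was not tested. The arm balance difference ran from -5.64 (without M0-exo replicate 1) to -2.69 (without M0-exo replicate 2). miR-702-5p passed the threshold in all 16 alternatives and miR-3102-5p in 14 of 15.

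No pairing of the samples by replicate number was found. Under a replicate block the count was 56, sharing 53 with the 60, with log2 fold changes of -1.01 for miR-877-5p, -0.24 for miR-320-3p, 0.06 for miR-484, 0.52 for miR-1839-5p and 2.67 for miR-877-3p. The block ended the call of miR-3102-5p (unadjusted p-value of 0.0732 from edgeR). Low counts limit the mirtrons other than miR-877-5p, miR-702-5p and miR-1981-5p.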
